A study of Mus musculus with 2 samples.

Results

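Within CT26 tumours, a minority of tumour cells carried high levels of interferon-inducible GTPase transcripts, and these cells are described here. CT26 is a colon carcinoma line of BALB/c mice. The cells were chosen in 2 steps from droplet single-cell RNA sequencing of whole tumours. Droplet barcodes entered a tumour gate when they held at least 3000 UMIs (unique molecular identifiers, 1 per captured RNA molecule), at most 15% mitochondrial UMIs, at least 3 UMIs and 200 CPM (counts per 1000000 UMIs) of the oncofetal gene Hmga2, and no UMI of the leukocyte gene Ptprc. Gated barcodes of both libraries were then ranked together by the mean natural log of 1 plus counts per 10000 over 5 genes, Iigp1, Gbp2, Igtp, Irgm1 and Gbp3, and the top 5% were kept. This gave 662 barcodes out of 13246 gated ones, from 32516 barcodes in all. They are called members below, and the 12584 remaining gated barcodes are called the other tumour barcodes. The WQ-2101 library came from CT26 tumours under the skin of wild type BALB/c mice, 5 weeks old at the start, that received 20 mg/kg WQ-2101, an inhibitor of the serine synthesis enzyme PHGDH, into the peritoneum every day once tumours measured about 100 mm³. The vehicle library came from the same model with vehicle alone, and both tumours were taken on day 17 after implantation. Each group had 1 library, both labelled as batch 1, and how many mice went into each was not given in the sources used here. No value therefore has a replicate error, no test of the treatment was possible, and every interval below is a 95% interval that covers counting error only.

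Interferon gamma, released mainly by T cells and natural killer cells, binds the receptor IFNGR1 and IFNGR2, which signals through the kinases JAK1 and JAK2 to promoters that hold GAS elements. Among the genes induced there is IRF1, a transcription factor that in turn binds ISRE elements. The targets include guanylate-binding proteins and immunity-related GTPases that attack the vacuoles of intracellular pathogens, the peptide loading machinery of MHC class I, chemokines that draw T cells, and the checkpoint ligand PD-L1. Type I interferons reach ISRE elements through a complex that holds STAT2 and IRF9, so many targets are shared by both pathways.

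The start-site sequences of 4 of the 5 genes that chose the members, and of Irf1, Socs1 and Cxcl10, are shown because they hold letters of these 2 elements. Each is a RefSeq window of 300 bases on GRCm38.p6, from 250 bases before to 50 after the start, written 5′ to 3′ on the gene's strand. Capitals mark matches on either strand to TTCNNNGAA (GAS) or to the ISRE core GAAANNGAAA. The windows are Gbp2 at chr3:142620413-142620712 (plus strand), Gbp3 at chr3:142559794-142560093 (plus), Igtp at chr11:58199306-58199605 (plus), Irgm1 at chr11:48871371-48871670 (minus), Irf1 at chr11:53769764-53770063 (plus), Socs1 at chr16:10785487-10785786 (minus) and Cxcl10 at chr5:92348840-92349139 (minus).
Gbp2: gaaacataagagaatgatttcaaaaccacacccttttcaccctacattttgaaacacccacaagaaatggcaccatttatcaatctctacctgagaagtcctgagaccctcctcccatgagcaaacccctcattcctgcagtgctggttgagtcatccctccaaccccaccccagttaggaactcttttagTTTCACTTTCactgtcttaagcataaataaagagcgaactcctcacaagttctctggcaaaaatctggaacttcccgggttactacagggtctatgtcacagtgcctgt
Gbp3: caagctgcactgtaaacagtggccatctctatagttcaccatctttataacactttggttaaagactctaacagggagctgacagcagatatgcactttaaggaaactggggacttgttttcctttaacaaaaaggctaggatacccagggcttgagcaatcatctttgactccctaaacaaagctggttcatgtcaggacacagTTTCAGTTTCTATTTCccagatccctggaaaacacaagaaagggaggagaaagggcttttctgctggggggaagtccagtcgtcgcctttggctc
Igtp: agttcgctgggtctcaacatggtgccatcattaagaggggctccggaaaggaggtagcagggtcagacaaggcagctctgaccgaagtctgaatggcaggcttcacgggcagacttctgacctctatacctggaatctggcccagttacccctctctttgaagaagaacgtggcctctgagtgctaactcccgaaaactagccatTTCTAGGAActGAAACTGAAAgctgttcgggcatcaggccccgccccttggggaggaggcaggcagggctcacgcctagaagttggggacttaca
Irgm1: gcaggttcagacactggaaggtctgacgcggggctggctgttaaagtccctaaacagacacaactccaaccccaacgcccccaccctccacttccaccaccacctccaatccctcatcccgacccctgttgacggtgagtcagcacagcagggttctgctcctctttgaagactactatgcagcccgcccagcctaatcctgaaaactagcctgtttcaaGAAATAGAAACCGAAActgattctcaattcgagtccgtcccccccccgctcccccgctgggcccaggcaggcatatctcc
Irf1: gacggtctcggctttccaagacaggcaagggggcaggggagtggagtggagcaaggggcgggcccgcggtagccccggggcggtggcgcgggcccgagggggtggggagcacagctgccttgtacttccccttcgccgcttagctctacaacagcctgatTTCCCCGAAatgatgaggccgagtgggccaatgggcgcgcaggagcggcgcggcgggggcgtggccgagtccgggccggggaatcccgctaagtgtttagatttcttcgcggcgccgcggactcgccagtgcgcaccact
Socs1: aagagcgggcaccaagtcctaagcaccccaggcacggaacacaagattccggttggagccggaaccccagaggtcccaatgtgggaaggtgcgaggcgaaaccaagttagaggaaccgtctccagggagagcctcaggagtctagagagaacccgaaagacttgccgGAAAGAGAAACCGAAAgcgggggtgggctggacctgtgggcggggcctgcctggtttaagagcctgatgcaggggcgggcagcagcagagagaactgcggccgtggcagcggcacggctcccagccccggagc
Cxcl10: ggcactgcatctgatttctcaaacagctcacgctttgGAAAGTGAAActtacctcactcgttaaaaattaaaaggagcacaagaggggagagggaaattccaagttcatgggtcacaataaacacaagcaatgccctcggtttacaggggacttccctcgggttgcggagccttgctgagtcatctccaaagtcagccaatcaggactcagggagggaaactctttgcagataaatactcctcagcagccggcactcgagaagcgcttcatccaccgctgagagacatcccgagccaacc

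The 4 GTPase windows each held an ISRE core between 59 and 15 bases before the start. Gbp3 and Irgm1 held 2 each, overlapping by 4 bases, and Igtp also held a GAS match from 45 to 37 bases before its start. Irf1 held 1 GAS match 90 to 82 bases before its start, Socs1 held 2 overlapping ISRE cores, and Cxcl10 held 1 ISRE core 213 to 204 bases before its start. Among all 32851 RefSeq mouse windows of this length, 8.30% held a GAS match and 3.44% an ISRE core. Of the 98 genes at least 2-fold higher in members, introduced below, 67 had a window, of which 15 (22.4%) held a GAS match, 26 (38.8%) an ISRE core and 33 (49.3%) either. Of the 8690 genes tested, 6937 had a window, and these shares were 8.03%, 3.79% and 11.2%. The windows of Cxcl9, Cd274, Tap1 and Psmb9 held neither element, and neither did a second RefSeq window of Gbp3 and of Irf1. Serpina3g held a GAS match, and Gbp5 and Gbp7 held both elements. A match describes the letters only, and binding was not measured.

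The WQ-2101 library held 18142 barcodes and 185587327 UMIs, and the vehicle library held 14374 barcodes and 184754398 UMIs. Median UMIs of members were 13396 in WQ-2101 and 16118 in vehicle, close to the 13476.5 and 16709.5 of the other tumour barcodes of the same libraries. Median mitochondrial shares were between 1.81% and 1.91% in all 4 sets, and Scrublet called 0.217% of WQ-2101 members and 0.995% of vehicle members doublets, against 1.69% and 1.5% of the others. The libraries shared 73 barcode sequences, of which 4 were WQ-2101 members and 1 was a vehicle member. As checks of identity, the CT26 gene Igf2bp2 had 171 CPM in WQ-2101 members and 157 CPM in the other WQ-2101 barcodes, and 124 CPM in vehicle members and 143 CPM in the other vehicle barcodes, and Igf2bp3 had 75.2 CPM in WQ-2101 members and 73.5 CPM in the other WQ-2101 barcodes, and 86.5 CPM in vehicle members and 79.1 CPM in the other vehicle barcodes. The epithelial keratins Krt8 and Krt18 had no UMI in members of either library, where 3 UMIs would have been 0.444 CPM in WQ-2101 and 0.859 CPM in vehicle. The epithelial marker Cd24a was between 1.04 and 2.01 CPM in all 4 sets. Krt14, a keratin of basal epithelium, was present, with 191 CPM in WQ-2101 members and 198 CPM in the other WQ-2101 barcodes, and 115 CPM in vehicle members and 87.1 CPM in the other vehicle barcodes. The 4 fibroblast markers summed to 328 CPM in WQ-2101 members and 351 CPM in the others, and to 433 and 476 CPM in vehicle. Most of this was Dcn, with 274 CPM in WQ-2101 members and 298 CPM in the other WQ-2101 barcodes. In vehicle, Dcn had 372 CPM in members and 419 CPM in the others. Of the 4 markers, 1 had no UMI in WQ-2101 members. Markers of T and natural killer cells summed to 11.5 and 4.58 CPM in WQ-2101 and vehicle members, with 9 and 8 of 10 detected (Klrb1c at 0 in both and Cd4 at 0 in vehicle). The 6 dendritic cell markers summed to 26.6 CPM (22.9 to 30.8) in WQ-2101 members and 17.8 CPM (17.0 to 18.6) in the others. In vehicle they summed to 24.1 CPM (19.2 to 29.8) and 18.6 CPM (17.8 to 19.5). In members, 2 and 4 of these 6 had no UMI. Neutrophil, B cell and endothelial markers each summed to at most 8.88 CPM in members. All 12 macrophage markers were detected in members, summing to 359 and 364 CPM, against 449 and 328 CPM in the other tumour barcodes.

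The score did not split the gated barcodes into separate groups. Of WQ-2101 tumour barcodes, 62.4% had at least 1 UMI of the 5 genes and 29.1% scored above 0.25, against 48.4% and 14.6% of vehicle tumour barcodes. The 3 members nearest the threshold scored 0.8682, 0.8678 and 0.8670, and the 3 nearest barcodes outside it scored 0.8668, 0.8655 and 0.8653, each with 6 or more UMIs of the 5 genes. Member scores reached 2.36 in WQ-2101 and 2.51 in vehicle, with medians of 1.18 and 1.34. All 5 genes were detected in 202 of 461 WQ-2101 members (43.8%) and 118 of 201 vehicle members (58.7%), against 59 (0.843%) and 36 (0.645%) of the others. Members held a median of 26 UMIs of the 5 genes in WQ-2101 (range 4 to 165) and 36 in vehicle (5 to 140).

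**Figure D1:**
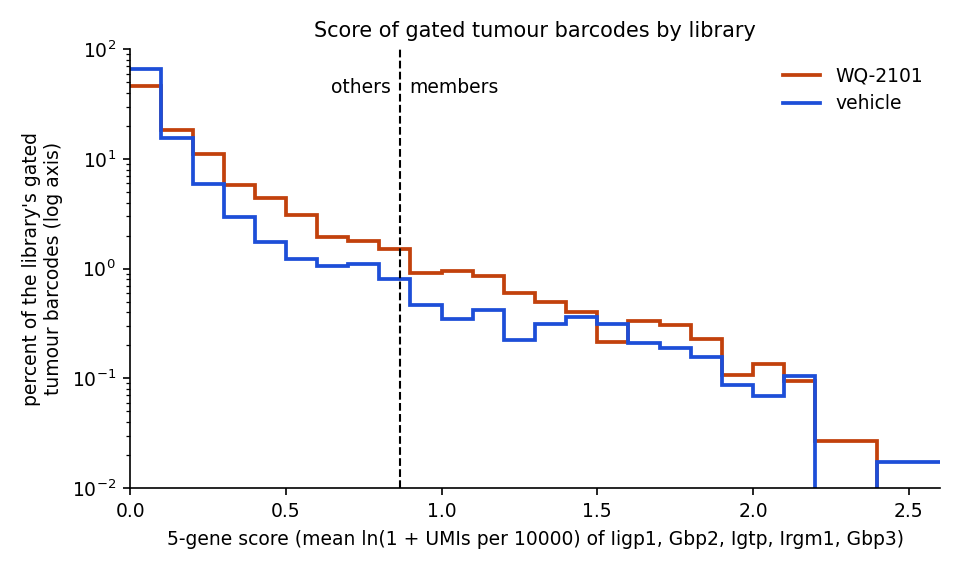
Percent of gated tumour barcodes of each library (y axis, log scale) by the 5-gene score (x axis, mean natural log of 1 plus counts per 10000), in bins of 0.1, with the member threshold as a dashed line. Scores fall off without a gap at the threshold, and from 0.1 to 1.5 every WQ-2101 bin lies above its vehicle bin.

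Summed over barcodes, the choosing genes had the levels the rule demands, which are given as a description. Levels are CPM of the summed barcodes. Iigp1, an immunity-related GTPase on chromosome 18, had 950.3 CPM in WQ-2101 members and 45.2 CPM in the other WQ-2101 barcodes, and 1155 CPM in vehicle members and 20.8 CPM in the other vehicle barcodes. Gbp2, a guanylate-binding protein on chromosome 3, had 743 CPM in WQ-2101 members and 53.3 CPM in the other WQ-2101 barcodes, and 739 CPM in vehicle members and 32.1 CPM in the other vehicle barcodes. Igtp, or Irgm3, a regulatory immunity-related GTPase on chromosome 11, had 262 CPM in WQ-2101 members and 19.5 CPM in the other WQ-2101 barcodes, and 266 CPM in vehicle members and 10.3 CPM in the other vehicle barcodes. Irgm1 on chromosome 11 had 103 CPM in WQ-2101 members and 9.93 CPM in the other WQ-2101 barcodes, and 130.4 CPM in vehicle members and 6.27 CPM in the other vehicle barcodes. Gbp3 on chromosome 3 had 123 CPM in WQ-2101 members and 12.5 CPM in the other WQ-2101 barcodes, and 129 CPM in vehicle members and 7.35 CPM in the other vehicle barcodes. Intervals of the 2 libraries' members overlapped for Gbp2, Igtp and Gbp3, and Iigp1 and Irgm1 were lower in WQ-2101 members, at 0.823 (0.791 to 0.856) and 0.792 (0.703 to 0.894) times the vehicle level. The other tumour barcodes were higher in WQ-2101 for all 5, by 1.58-fold for Irgm1 to 2.18-fold for Iigp1.

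Each choosing gene was also read in barcodes chosen without it, by the other 4 genes. Iigp1 then had 819.9 CPM in the top 5% and 56.6 CPM in the rest of the WQ-2101 barcodes, a 14.5-fold difference (13.9 to 15). In vehicle it had 952 CPM in the top 5% and 26.2 CPM in the rest, 36.3-fold (34.5 to 38.2). The other 4 genes were 8.10-fold to 11-fold higher in the top 5% in WQ-2101 and 14.4-fold to 22.1-fold in vehicle. The barcodes chosen by 4 genes shared 553 to 605 of the 662 members, an overlap largely set by the 4 genes that both scores hold. Each choosing gene was thus higher in the barcodes that the other 4 chose, and the smaller WQ-2101 folds went with higher levels in the rest.

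Members made up 461 of 7463 WQ-2101 tumour barcodes, or 6.18% (5.64 to 6.75, exact Clopper-Pearson), and 201 of 5783 vehicle tumour barcodes, or 3.48% (3.02 to 3.98). The ratio was 1.78 (1.5 to 2.11). The ratio of shares depended on the level asked for. It was 1.29 (1.23 to 1.35) for any UMI of the 5 genes, 1.99 (1.84 to 2.16) above a score of 0.25, 1.88 (1.68 to 2.11) above 0.5, 1.70 (1.41 to 2.06) above 1 and 1.27 (0.931 to 1.75) above 1.5. The interval at the highest of these levels includes 1. The WQ-2101 barcodes were the shallower ones, and after thinning each barcode to 3000 UMIs the share with any UMI of the 5 genes was 31.9% in WQ-2101 and 19.5% in vehicle, a ratio of 1.64 (1.52 to 1.76). The member ratio was 1.58 after that thinning and 1.79 without Scrublet doublets, with the top 5% ranked anew in each setting. It was 1.44 (0.935 to 2.27) among barcodes with no UMI of 7 immune genes (C1qa, C1qb, C1qc, Tyrobp, Fcer1g, Cd3e and Nkg7), also ranked anew. It was 1.26 (0.976 to 1.63) for the top 2% by score, and these last intervals include 1. Whether another pair of tumours would show the same ratio cannot be told from 1 library each.

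Beyond the choosing genes, members differed from the other tumour barcodes mainly in 1 direction. Of 8690 genes with a mean of at least 10 CPM, 98 (1.13%) were at least 2-fold higher in members in both libraries and 0 (0%) were at least 2-fold lower. The mean was taken over members and others of both libraries, so a gene low in the others could pass only by being high in members. The fold was taken on CPM plus 5. Counted in a single library, 104 genes were higher and 1 was lower in WQ-2101, and 143 were higher and 0 lower in vehicle. By any amount, 3140 genes (36.1%) were higher and 2501 (28.8%) lower in both libraries, and the median log2 ratio over all tested genes was 0.01 in WQ-2101 and 0.02 in vehicle. Since the members were chosen by expression in the same barcodes, these ratios describe what goes with the score and are no independent test. Reads of near-identical genes could be split by the authors' counting, so values of the families Gm4951 and Gm4841, Tgtp1 and Tgtp2, 9930111J21Rik1 and 9930111J21Rik2, Serpina3f and Serpina3g, Apol9a and Apol9b, and Ifi203, Ifi205 and Mndal are uncertain for each gene alone. The same holds where annotated genes overlap, as do Igtp and Irgm2, Gbp4, Gbp8 and Gbp9, and Olfr56, whose span on chromosome 11 holds Ifi47, Tgtp1 and Tgtp2.

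**Figure D2:**
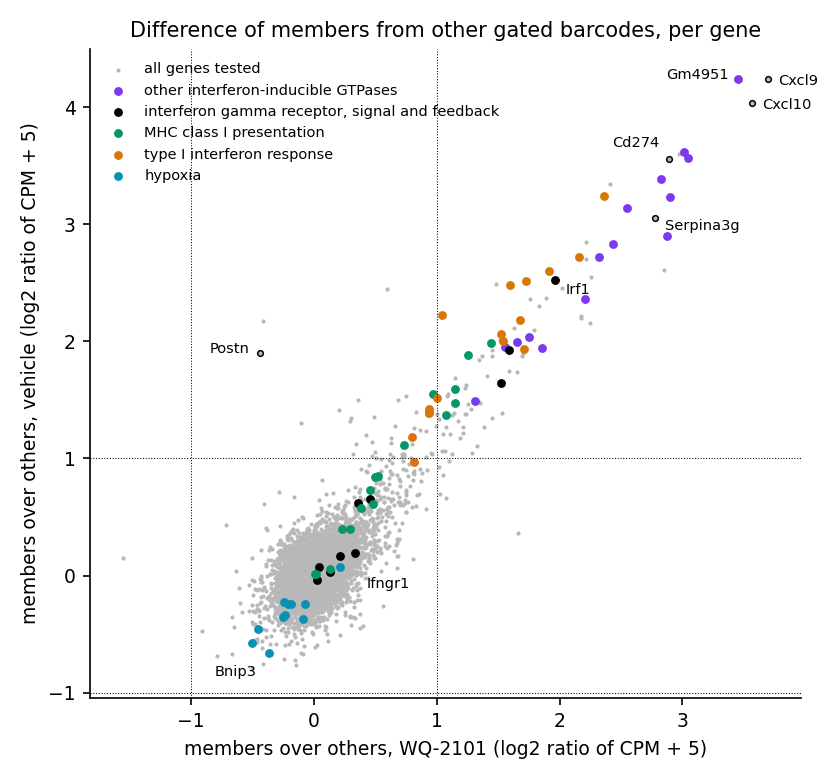
Log2 ratio of members over other tumour barcodes, (CPM + 5) over (CPM + 5), in WQ-2101 (x axis) and in vehicle (y axis) for tested genes, with gene lists coloured. All 15 GTPases outside the rule lie beyond 2-fold (dotted lines at 1 and -1) on both axes, while hypoxia genes lie mostly below 0.

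The receptor and the kinases below it differed less between members and others than the transcription factors Irf1 and Irf8 did. Of 10 tested genes of interferon gamma reception, signal and feedback, 3 were at least 2-fold higher in both libraries, against 1.13% of all tested genes. These were Irf1, Irf8 and Socs1, and the list's median log2 ratio was 0.35 in WQ-2101 and 0.41 in vehicle. Ifngr1, the ligand-binding receptor chain, had 51.9 CPM in WQ-2101 members and 40.1 CPM in the other WQ-2101 barcodes, and 47.6 CPM in vehicle members and 40.9 CPM in the other vehicle barcodes. It was 1.29-fold (1.16 to 1.44) higher in WQ-2101 members and 1.16-fold (0.989 to 1.36) in vehicle, where the interval includes 1. Jak2, the kinase tied to IFNGR2, had 43.7 CPM in WQ-2101 members and 30.5 CPM in the other WQ-2101 barcodes, and 51.6 CPM in vehicle members and 31 CPM in the other vehicle barcodes, or 1.43-fold (1.27 to 1.61) in WQ-2101 and 1.67-fold (1.43 to 1.94) in vehicle. Irf1, which binds the ISRE, had 632 CPM in WQ-2101 members and 158 CPM in the other WQ-2101 barcodes, and 675 CPM in vehicle members and 113 CPM in the other vehicle barcodes, or 4.0-fold (3.87 to 4.14) and 5.95-fold (5.69 to 6.22). Irf8, which pairs with IRF1 on interferon response elements, had 46 CPM in WQ-2101 members and 12 CPM in the other WQ-2101 barcodes, and 42.4 CPM in vehicle members and 7.45 CPM in the other vehicle barcodes, 3.84-fold (3.38 to 4.36) and 5.69-fold (4.74 to 6.8). Socs1, the feedback inhibitor of JAK1 and JAK2, had 104 CPM in WQ-2101 members and 33 CPM in the other WQ-2101 barcodes, and 143 CPM in vehicle members and 42.3 CPM in the other vehicle barcodes, 3.15-fold (2.9 to 3.42) in WQ-2101 and 3.37-fold (3.07 to 3.7) in vehicle. Member levels of Irf8 overlapped between the libraries within counting error, and the larger vehicle fold came with a lower level in the other vehicle barcodes. Interferon gamma itself was nearly absent, with 6 Ifng UMIs in WQ-2101 members and 2 in vehicle members. Ifnb1 had no UMI in members of either library. In a T cell gate of 117 WQ-2101 and 162 vehicle barcodes, Ifng was at 379 and 132 CPM.

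All 15 tested GTPases outside the rule were at least 2-fold higher in members in both libraries, against 1.13% of all tested genes. The level filter averages members and others of both libraries, so F830016B08Rik and Gbp6, low in the others, passed it through the members alone. The count is therefore partly set by the filter. Their log2 ratios ran between 1.31 and 3.45 in WQ-2101 and between 1.49 and 4.24 in vehicle, with medians of 2.44 and 2.83. Gm4951, an immunity-related GTPase gene that resembles Iigp1, had 178 CPM in WQ-2101 members and 11.7 CPM in the other WQ-2101 barcodes, and 241 CPM in vehicle members and 7.99 CPM in the other vehicle barcodes, a fold of 15.2 (14 to 16.5) in WQ-2101 and 30.1 (27.3 to 33.2) in vehicle. F830016B08Rik, of the same family, had 68.7 CPM in WQ-2101 members and 4.13 CPM in the other WQ-2101 barcodes, and 80.8 CPM in vehicle members and 2.0 CPM in the other vehicle barcodes. Gbp7 had 275 CPM in WQ-2101 members and 29 CPM in the other WQ-2101 barcodes, and 285 CPM in vehicle members and 19.5 CPM in the other vehicle barcodes, with 9.5-fold (8.96 to 10.1) and 14.7-fold (13.6 to 15.8). Gbp6 had 64.1 CPM in WQ-2101 members and 4.74 CPM in the other WQ-2101 barcodes, and 67.9 CPM in vehicle members and 1.99 CPM in the other vehicle barcodes, with 13.5-fold (11.9 to 15.4) and 34.2-fold (28.2 to 41.4). Member intervals of the 2 libraries overlapped for Gbp7 and Gbp6, and did not for Gm4951. Of the list's members below the level filter, Gbp10 had 17 UMIs in WQ-2101 members and 3 in the other WQ-2101 barcodes, and 6 UMIs in vehicle members and 0 in the other vehicle barcodes. Gbp2b had no UMI in members. No UMI of the 7 immune genes was held by 16.5% of WQ-2101 members and 20.9% of vehicle members, against 13.9% and 14.4% of the others. With barcodes lacking those UMIs ranked anew, their top 5% held 61 WQ-2101 and 34 vehicle barcodes. The list's median log2 ratio was then 2.48 in WQ-2101 and 2.73 in vehicle.

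Of 17 tested interferon genes shared by both pathways, 11 were at least 2-fold higher in members in both libraries, and all 17 were higher by any amount. Over all tested genes these shares were 1.13% and 36.1%. The median log2 ratio was 1.14 in WQ-2101 and 1.53 in vehicle, and with the top 10% as members the WQ-2101 median was 0.99. Parp14, an ADP-ribosyltransferase, had 129.8 CPM in WQ-2101 members and 24.1 CPM in the other WQ-2101 barcodes, and 151 CPM in vehicle members and 16.7 CPM in the other vehicle barcodes. Samhd1, a nucleotide hydrolase that limits retroviruses, had 289 CPM in WQ-2101 members and 67.5 CPM in the other WQ-2101 barcodes, and 312 CPM in vehicle members and 52.9 CPM in the other vehicle barcodes. Stat2, a transcription factor of type I signalling, had 75 CPM in WQ-2101 members and 16.6 CPM in the other WQ-2101 barcodes, and 94 CPM in vehicle members and 14.2 CPM in the other vehicle barcodes. Parp9, which acts with Dtx3l as a ubiquitin ligase, had 95.3 CPM in WQ-2101 members and 24.7 CPM in the other WQ-2101 barcodes, and 110.0 CPM in vehicle members and 17.4 CPM in the other vehicle barcodes. For each of these 4 genes the members of both libraries stood above both sets of other barcodes, with intervals apart.

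In the MHC class I pathway, 7 of 19 tested genes were at least 2-fold higher in members in both libraries and all 19 were higher by any amount. Over all tested genes these shares were 1.13% and 36.1%. The list's median log2 ratios were 0.53 in WQ-2101 and 0.85 in vehicle. Tap1, Nlrc5, Psmb9 and Psmb10 are set beside B2m and 1 heavy chain gene, H2-K1, which was added after its values were seen. Other heavy chain genes are not given. Tap1, a subunit of the peptide transporter, had 127 CPM in WQ-2101 members and 37.7 CPM in the other WQ-2101 barcodes, and 111 CPM in vehicle members and 21.9 CPM in the other vehicle barcodes, or 3.38-fold (3.14 to 3.64) and 5.08-fold (4.55 to 5.67). Nlrc5, the transactivator of class I genes, had 158 CPM in WQ-2101 members and 55.1 CPM in the other WQ-2101 barcodes, and 166 CPM in vehicle members and 38.3 CPM in the other vehicle barcodes, or 2.87-fold (2.68 to 3.06) and 4.34-fold (3.98 to 4.74). The immunoproteasome subunit Psmb9 had 121 CPM in WQ-2101 members and 47.9 CPM in the other WQ-2101 barcodes, and 116 CPM in vehicle members and 27.7 CPM in the other vehicle barcodes, and Psmb10 had 141 CPM in WQ-2101 members and 61.1 CPM in the other WQ-2101 barcodes, and 172 CPM in vehicle members and 50.2 CPM in the other vehicle barcodes. The heavy chain gene H2-K1 had 1532 CPM in WQ-2101 members and 1169.8 CPM in the other WQ-2101 barcodes, and 1458 CPM in vehicle members and 974 CPM in the other vehicle barcodes, 1.31-fold (1.28 to 1.34) in WQ-2101 and 1.5-fold (1.45 to 1.54) in vehicle. B2m, the light chain, had 997 CPM in WQ-2101 members and 849 CPM in the other WQ-2101 barcodes, and 989 CPM in vehicle members and 749 CPM in the other vehicle barcodes, 1.17-fold (1.15 to 1.2) and 1.32-fold (1.28 to 1.37). Folds of the transporter, the transactivator and the immunoproteasome were thus above those of H2-K1 and B2m, with intervals apart in both libraries.

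Of 7 tested MHC class II genes, none was at least 2-fold higher in WQ-2101 members and 6 were in vehicle members, with median log2 ratios of 0.49 and 1.20. Among all 8690 tested genes, 104 passed that limit in WQ-2101 and 143 in vehicle. The top 5% was also ranked anew among barcodes with no UMI of the 7 immune genes. The medians were then 1.17 in WQ-2101 and 1.21 in vehicle, from 61 and 34 members. Ciita, the class II transactivator, lay below the level filter, with 64 UMIs (9.47 CPM) in WQ-2101 members and 1.39 CPM in the other WQ-2101 barcodes, and 27 UMIs (7.74 CPM) in vehicle members and 0.489 CPM in the other vehicle barcodes. Its fold was 6.84 (5.01 to 9.25) in WQ-2101 and 15.8 (9.51 to 25.7) in vehicle. Cd74, the invariant chain, had 230.3 CPM in WQ-2101 members and 162 CPM in the other WQ-2101 barcodes, and 169.6 CPM in vehicle members and 63.3 CPM in the other vehicle barcodes, 1.42-fold (1.35 to 1.5) and 2.68-fold (2.46 to 2.92). H2-Eb1, a class II beta chain, had 133 CPM in WQ-2101 members and 80.7 CPM in the other WQ-2101 barcodes, and 106 CPM in vehicle members and 34.3 CPM in the other vehicle barcodes. In the other barcodes Cd74 was 2.56 (2.49 to 2.64) times as high in WQ-2101 as in vehicle. Macrophage transcripts, which include abundant class II RNA, are measured beside this. C1qa, a macrophage gene, had 46.9 CPM in WQ-2101 members and 57.4 CPM in the other WQ-2101 barcodes, and 34.7 CPM in vehicle members and 30.1 CPM in the other vehicle barcodes. At the ratio of Cd74 to C1q found in a macrophage gate, the C1q of members would carry 94.2 CPM of Cd74 in WQ-2101 and 64.9 CPM in vehicle, and 118 and 54.7 CPM in the other barcodes. The same ratio gave at most 0.453 CPM for Ciita in members and at most 2.41 CPM for any of the 5 choosing genes. In the barcodes without those 7 genes, the log2 ratio of members over others for Cd74 was 1.36 in WQ-2101 and 1.67 in vehicle. What part macrophage RNA had in the class II values was not tested further.

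Of 9 tested checkpoint ligands and immune brakes, 2 were at least 2-fold higher in members in both libraries, against 1.13% of all tested genes. The list's median log2 ratios were 0.37 and 0.38. The first was Cd274, which encodes PD-L1, with 102 CPM in WQ-2101 members and 9.4 CPM in the other WQ-2101 barcodes, and 130.1 CPM in vehicle members and 6.47 CPM in the other vehicle barcodes, a fold of 10.8 (9.79 to 11.9) in WQ-2101 and 20.1 (17.8 to 22.7) in vehicle. The second was Serpina3g, of the serine protease inhibitor family, with 96 CPM in WQ-2101 members and 9.74 CPM in the other WQ-2101 barcodes, and 81.6 CPM in vehicle members and 5.43 CPM in the other vehicle barcodes. Lgals9, or galectin-9, had 35.1 CPM in WQ-2101 members and 21 CPM in the other WQ-2101 barcodes, and 41.8 CPM in vehicle members and 17.9 CPM in the other vehicle barcodes, and Serpinb9, an inhibitor of granzyme B, had 16.1 CPM in WQ-2101 members and 9.76 CPM in the other WQ-2101 barcodes, and 16.9 CPM in vehicle members and 8.63 CPM in the other vehicle barcodes. Cd274 was lower in WQ-2101 members than in vehicle members and higher in the other WQ-2101 barcodes than in the other vehicle ones. The member difference turned with the choice of members: its log2 ratio of WQ-2101 over vehicle was -0.34 as defined, 0.22 with the top 5% taken within each library, and 1.19 without barcodes holding the 7 immune genes. After thinning to 3000 UMIs, a Cd274 UMI was found in 21.5% of WQ-2101 members (17.8 to 25.5) and 22.4% of vehicle members (16.8 to 28.8), against 2.87% and 1.95% of the others. Unthinned, the shares were 55.1% and 56.2% of members and 11.3% and 9.41% of the others. Immune barcodes held Cd274 too, in 34.2% of the WQ-2101 and 30.2% of the vehicle T cell gate after thinning. In the macrophage gate it was at 205 CPM in WQ-2101 and 123 CPM in vehicle. At the members' C1q level, the ratio of Cd274 to C1q in that gate gave 3.39 and 1.85 CPM. What part immune or free RNA had in the Cd274 values was not tested.

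Chemokines that attract CXCR3-bearing T cells were among the genes with the highest folds. Of 9 tested chemokines and growth factors, 3 were at least 2-fold higher in members in both libraries, against 1.13% of all tested genes. The list medians were 0.69 and 0.92 on the log2 scale. Cxcl9 had 283 CPM in WQ-2101 members and 17.2 CPM in the other WQ-2101 barcodes, and 244 CPM in vehicle members and 8.23 CPM in the other vehicle barcodes, a fold of 16.5 (15.4 to 17.6) in WQ-2101 and 29.7 (27 to 32.7) in vehicle. Cxcl10 had 1282 CPM in WQ-2101 members and 104 CPM in the other WQ-2101 barcodes, and 1740.1 CPM in vehicle members and 102 CPM in the other vehicle barcodes, a fold of 12.4 (12 to 12.7) and 17.1 (16.6 to 17.7). Ccl5 had 58.9 CPM in WQ-2101 members and 20.0 CPM in the other WQ-2101 barcodes, and 39.5 CPM in vehicle members and 11 CPM in the other vehicle barcodes, and Ccl2, which attracts monocytes, had 643 CPM in WQ-2101 members and 314 CPM in the other WQ-2101 barcodes, and 863 CPM in vehicle members and 452 CPM in the other vehicle barcodes. Ccl2 was 2.05-fold (1.98 to 2.11) higher in WQ-2101 members and 1.91-fold (1.84 to 1.98) in vehicle members, while it was lower in WQ-2101 than in vehicle in both sets. At 3000 UMIs per barcode, Cxcl9 was detected in 29.3% of WQ-2101 members and 32.8% of vehicle members, in 4.54% and 2.01% of the other barcodes, and in 2.56% and 2.47% of a T cell gate (117 and 162 barcodes), in which it is not normally made. Unthinned, the shares were 49.7% and 50.2% of members, 14.1% and 8.92% of the others, and 3.42% and 4.32% of the T cell gate, whose median UMIs were 4099 and 4356. At equal depth the shares in the other barcodes lay inside the wide intervals of the small T cell gates (0.532% to 7.31% in WQ-2101 and 0.677% to 6.2% in vehicle), and the shares in members lay above them. Cxcl10 was then detected in 66.8% of WQ-2101 members and 70.1% of vehicle members. The other barcodes held it in 18.5% and 16.2%, and the T cell gates in 29.9% and 38.3%. Macrophages also expressed Cxcl9, at 398 CPM in the WQ-2101 macrophage gate and 316 CPM in the vehicle one, and at the members' C1q level the ratio of Cxcl9 to C1q in that gate gave 6.59 and 4.74 CPM. What part macrophage or free RNA had in the Cxcl9 values was not tested.

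**Figure D3:**
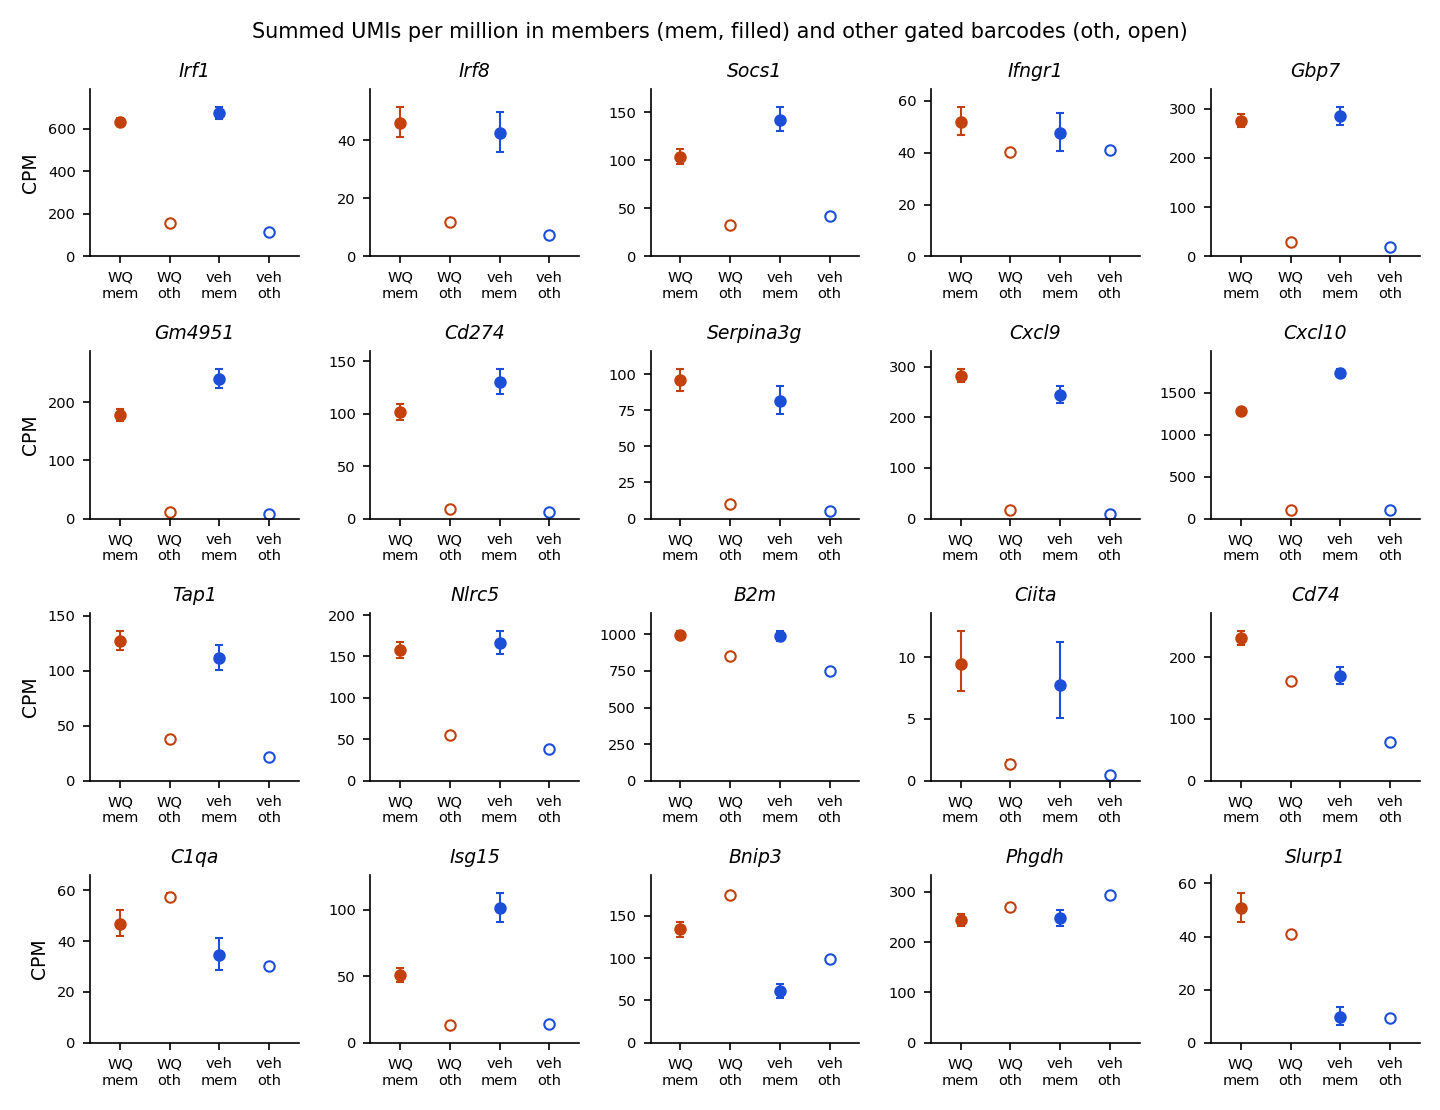
Levels (CPM, linear axes from 0) of 20 named genes in members (mem, filled) and other barcodes (oth, open) of the WQ-2101 (WQ) and vehicle (veh) libraries, with 95% Poisson intervals. Irf1 stands at 632 and 675 CPM in members, above 158 and 113 CPM in the others, while Ifngr1, B2m and Phgdh differ little between the sets.

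Among 12 tested genes of cell death and the inflammasome, 3 were at least 2-fold higher in members in both libraries and all 12 were higher by any amount. Over all tested genes these shares were 1.13% and 36.1%. The list's median log2 ratios were 0.51 and 0.59. Zbp1, a sensor of Z-form nucleic acids that can start necroptosis, had 42 CPM in WQ-2101 members and 8.17 CPM in the other WQ-2101 barcodes, and 48.7 CPM in vehicle members and 5.86 CPM in the other vehicle barcodes. Fas, the death receptor, had 21.5 CPM in WQ-2101 members and 6.06 CPM in the other WQ-2101 barcodes, and 19.8 CPM in vehicle members and 3.95 CPM in the other vehicle barcodes. Casp4, or caspase-11, which senses cytosolic lipopolysaccharide, had 81.5 CPM in WQ-2101 members and 36.8 CPM in the other WQ-2101 barcodes, and 89.4 CPM in vehicle members and 35.8 CPM in the other vehicle barcodes. Mlkl, the effector of necroptosis, was higher by less, with 132 CPM in WQ-2101 members and 86.2 CPM in the other WQ-2101 barcodes, and 127 CPM in vehicle members and 73.8 CPM in the other vehicle barcodes. Nos2, the inducible nitric oxide synthase, was below the filter, with 85 UMIs in 38 WQ-2101 members and 3 UMIs in 3 vehicle members. Of the 85 UMIs, 39 came from 5 barcodes.

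Of the genes on no list, the 15 with the highest folds in both libraries were Gm4841, Serpina3f, Ubd, Ifi203, Batf2, Gja4, Apol6, Mndal, Apol9a, Apol9b, Gm12216, Gm12185, Ddx60, Ifi205 and Olfr56. Gm4841, an immunity-related GTPase gene, had 55.8 CPM in WQ-2101 members and 2.75 CPM in the other WQ-2101 barcodes, and 70.2 CPM in vehicle members and 1.21 CPM in the other vehicle barcodes. Ubd encodes the ubiquitin-like protein FAT10 and had 70.2 CPM in WQ-2101 members and 10.7 CPM in the other WQ-2101 barcodes, and 65.3 CPM in vehicle members and 7.0 CPM in the other vehicle barcodes. Batf2, a transcription factor of the AP-1 family, had 44 CPM in WQ-2101 members and 5.83 CPM in the other WQ-2101 barcodes, and 34.4 CPM in vehicle members and 3.48 CPM in the other vehicle barcodes. Gja4, or connexin 37, had 28.6 CPM in WQ-2101 members and 2.45 CPM in the other WQ-2101 barcodes, and 22.1 CPM in vehicle members and 0.91 CPM in the other vehicle barcodes. Apol6, of the apolipoprotein L family, had 26.8 CPM in WQ-2101 members and 1.71 CPM in the other WQ-2101 barcodes, and 20.1 CPM in vehicle members and 0.626 CPM in the other vehicle barcodes. The lowest genes on no list moved less: Ngfr, the p75 neurotrophin receptor, had 7.7 CPM in WQ-2101 members and 16.9 CPM in the other WQ-2101 barcodes, and 7.45 CPM in vehicle members and 15.1 CPM in the other vehicle barcodes, and Klk8, a secreted serine protease, had 14.5 CPM in WQ-2101 members and 25.9 CPM in the other WQ-2101 barcodes, and 21.2 CPM in vehicle members and 36.8 CPM in the other vehicle barcodes. Gpnmb, a membrane glycoprotein, had 33.9 CPM in WQ-2101 members and 50.2 CPM in the other WQ-2101 barcodes, and 18.3 CPM in vehicle members and 35.4 CPM in the other vehicle barcodes, and the urea transporter gene Slc14a1 had 30.8 CPM in WQ-2101 members and 62.2 CPM in the other WQ-2101 barcodes, and 34.4 CPM in vehicle members and 49.6 CPM in the other vehicle barcodes. Their ratios, on CPM plus 5, all lay inside the 2-fold limit in at least 1 library.

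Type I interferon genes were highest in a subset of the members. Of 16 tested type I response genes, 11 were at least 2-fold higher in members in both libraries, against 1.13% of all tested genes. The list's median log2 ratios were 1.53 in WQ-2101 and 2.03 in vehicle. Ifit3 had 52.4 CPM in WQ-2101 members and 6.15 CPM in the other WQ-2101 barcodes, and 86.5 CPM in vehicle members and 4.69 CPM in the other vehicle barcodes. Ifit1 had 46.6 CPM in WQ-2101 members and 6.57 CPM in the other WQ-2101 barcodes, and 63.9 CPM in vehicle members and 5.47 CPM in the other vehicle barcodes. Rsad2, or viperin, had 34.9 CPM in WQ-2101 members and 7.07 CPM in the other WQ-2101 barcodes, and 50.4 CPM in vehicle members and 4.72 CPM in the other vehicle barcodes, and Oasl2 had 65.1 CPM in WQ-2101 members and 13.6 CPM in the other WQ-2101 barcodes, and 101 CPM in vehicle members and 12.4 CPM in the other vehicle barcodes. A type I score was formed from Ifit1, Ifit3, Isg15, Rsad2 and Usp18, and the top 5% of gated barcodes by it held 67 of 461 WQ-2101 members (14.5%) and 50 of 201 vehicle members (24.9%), against 4.67% and 3.91% of the other barcodes. Those shared barcodes were 17.0% and 18.7% of the type I top barcodes. In WQ-2101, Ifit3 was at 418 CPM in the 67 members that were also type I top and at 2.86 CPM in the 394 others of the members. In vehicle it was at 380 CPM in the 50 and 1.85 CPM in the 151 vehicle members, from 17 and 5 UMIs in the 394 and the 151. Ifit3 is 1 of the 5 genes of the type I score, so this split follows from the choice. Oasl2, outside that score, was at 255 CPM in the 67 and 39.3 CPM in the 394 WQ-2101 members. In vehicle, Oasl2 was at 274 CPM in the 50 and 50.9 CPM in the 151. Cd274 and Cxcl9 differed less between these parts of the members. Cd274 was at 114 CPM in the 67 and 100.0 CPM in the 394 WQ-2101 members, and at 131 CPM in the 50 and 129.9 CPM in the 151 vehicle members. Cxcl9 was at 381 CPM in the 67 and 269.6 CPM in the 394 WQ-2101 members, and at 309.9 CPM in the 50 and 225 CPM in the 151 vehicle members. Intervals overlapped for Cd274 and were apart for Cxcl9 in both libraries. Cxcl10 was at 2177 CPM in the 67 and 1161 CPM in the 394 WQ-2101 members. In vehicle, Cxcl10 was at 2870 CPM in the 50 and 1415 CPM in the 151, again with intervals apart. In barcodes that were type I top but not members, Cd274 was at 17.3 CPM in WQ-2101 and 17.2 CPM in vehicle, and Cxcl9 at 31.1 and 23.1 CPM. Without the shared barcodes, the type I list's median log2 ratio was 0.69 in WQ-2101 and 0.87 in vehicle, under the 2-fold limit, as it must fall when the type I top is removed from the members alone. With the type I top left out of both sides, Oasl2 was at 39.3 CPM in WQ-2101 members and 9.81 CPM in the others. In vehicle it was at 50.9 and 7.91 CPM. Isg15 was likewise higher in members, at 18.1 and 7.59 CPM in WQ-2101 and 19.6 and 6.75 CPM in vehicle. Ifit3 and Rsad2 intervals overlapped in both libraries, and Rsad2 was lower in vehicle members, at 1.11 and 1.51 CPM, from 3 UMIs in members.

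GTPases outside the rule, Cd274 and Cxcl9 rose with the score mainly in its upper bins and were highest at its top. Gated barcodes were cut into 7 bins, with score 0, 4 equal bins of the nonzero scores below the threshold, and 2 equal bins of members. The bins also differed in depth. The lowest nonzero bin was the deepest, with median UMIs of 17377 in WQ-2101 and 24271 in vehicle, against 12287 and 15808.5 at score 0. The 18 listed GTPases outside the rule, 3 of them below the level filter, summed to 76.4, 83.3, 118, 155, 338, 754 and 1581 CPM in WQ-2101 and to 50.8, 56.6, 69.9, 102, 275, 848 and 1596 CPM in vehicle. Cd274 stayed between 6.56 and 10.6 CPM over the lowest 4 WQ-2101 bins and then stood at 19.6, 55.7 and 148 CPM. In vehicle its last 3 bins held 15.7, 59.0 and 208 CPM. Cxcl9 stood at 473 CPM in the top WQ-2101 bin and 352 CPM in the top vehicle bin, and below the members it ranged between 6.51 and 51.8 CPM in WQ-2101 and between 4.46 and 30.7 CPM in vehicle, highest in the bin next to the threshold. The type I score genes did not keep this course in vehicle, where they summed to 152, 456 and 202 CPM in the last 3 bins, against 94.6, 143 and 251 CPM in WQ-2101. The 12 macrophage markers summed to 439, 304, 409, 605, 559.8, 354 and 364 CPM in WQ-2101, highest below the members. In vehicle they summed to 299.9, 342, 322, 365, 396, 254 and 485 CPM, highest in the top member bin, where C1qa was also highest, at 51.2 CPM against 19.7 to 39.5 CPM in the other vehicle bins. What part macrophage RNA had in the course of the score was not tested.

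**Figure D4:**
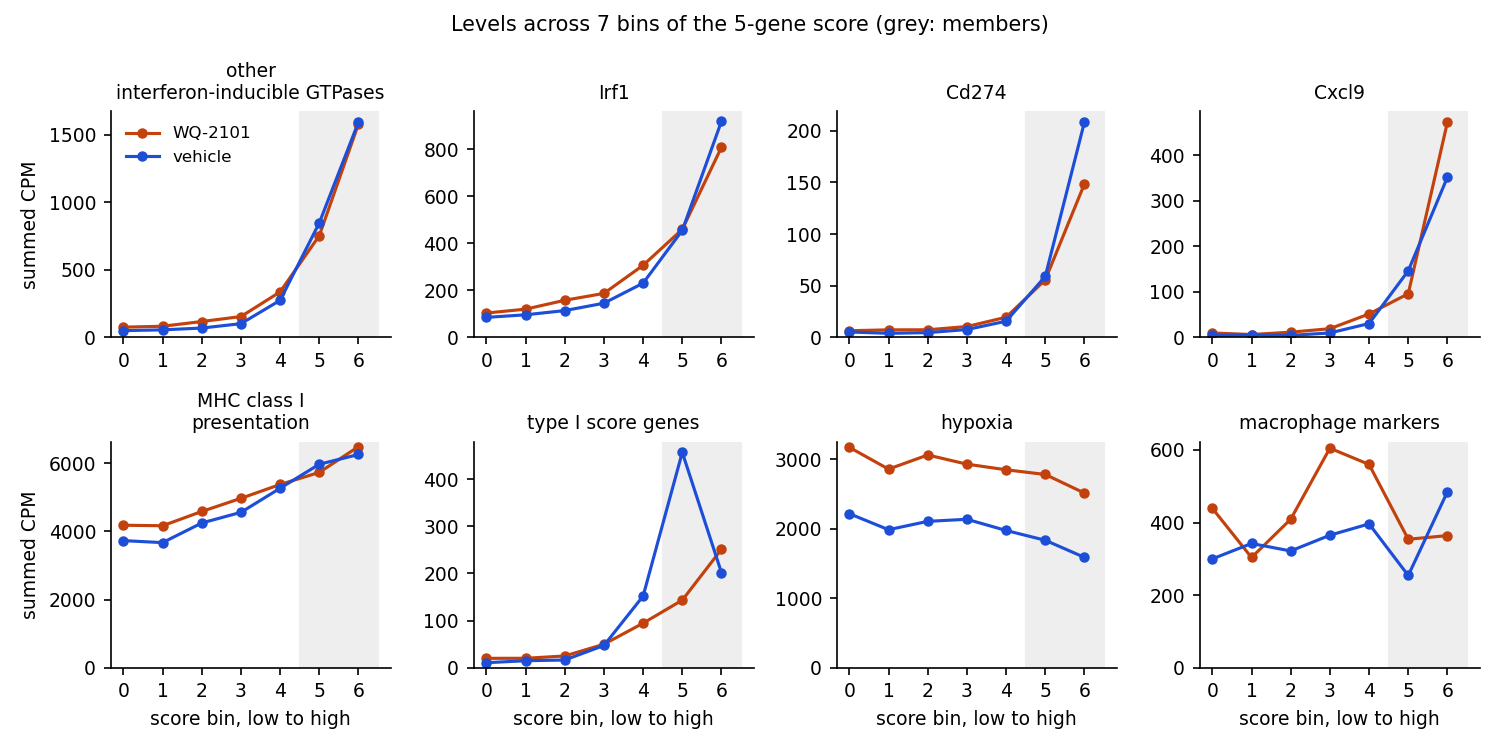
Summed level (CPM, linear axes from 0) of gene lists and single genes over 7 bins of the 5-gene score, numbered 0 to 6 from low to high, in WQ-2101 and vehicle, with the 2 member bins on grey. GTPases outside the rule, Irf1, Cd274 and Cxcl9 are highest in the top bin, while the hypoxia list is lowest there, at 2515 CPM in WQ-2101 and 1589 CPM in vehicle.

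Other programmes of the tumour cells differed less between members and the rest. Of 8 tested immediate early genes, all 8 were higher in members by any amount in both libraries, against 36.1% of all genes, and none reached 2-fold. The median log2 ratios were 0.39 and 0.35. Zfp36, a protein that degrades inflammatory mRNA, had 127 CPM in WQ-2101 members and 71.4 CPM in the other WQ-2101 barcodes, and 186 CPM in vehicle members and 108 CPM in the other vehicle barcodes, and Fos had 465 CPM in WQ-2101 members and 352 CPM in the other WQ-2101 barcodes, and 792 CPM in vehicle members and 574 CPM in the other vehicle barcodes. NF-kB feedback and adhesion genes were similar, with 10 of 11 higher by any amount, against 36.1% of all genes, none 2-fold, and medians of 0.44 and 0.26. Vcam1, an adhesion receptor for lymphocytes, had 221 CPM in WQ-2101 members and 119.6 CPM in the other WQ-2101 barcodes, and 211 CPM in vehicle members and 128 CPM in the other vehicle barcodes, and Birc3, an inhibitor of apoptosis, had 56.5 CPM in WQ-2101 members and 31.1 CPM in the other WQ-2101 barcodes, and 59.3 CPM in vehicle members and 36.5 CPM in the other vehicle barcodes. Hypoxia genes were lower, with 10 of 11 lower by any amount in both libraries, against 28.8% of all genes, none 2-fold, and medians of -0.24 and -0.34. Ankrd37 had 29.2 CPM in WQ-2101 members and 43.3 CPM in the other WQ-2101 barcodes, and 9.45 CPM in vehicle members and 16.5 CPM in the other vehicle barcodes, and the glycolytic enzyme gene Pgk1 had 674 CPM in WQ-2101 members and 802 CPM in the other WQ-2101 barcodes, and 424 CPM in vehicle members and 544 CPM in the other vehicle barcodes. Heat shock genes had medians of -0.12 and -0.18, with Hspa1b at 71.3 CPM in WQ-2101 members and 91.6 CPM in the other WQ-2101 barcodes, and 41.5 CPM in vehicle members and 48.7 CPM in the other vehicle barcodes.

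Serine and one-carbon genes, the pathway that WQ-2101 targets, differed little between members and others. Of 11 tested, 3 were higher and 6 lower by any amount in both libraries, against 36.1% and 28.8% of all tested genes. None differed by 2-fold, and the medians were -0.08 and -0.19. Phgdh, the enzyme that starts serine synthesis, had 244 CPM in WQ-2101 members and 269.6 CPM in the other WQ-2101 barcodes, and 248 CPM in vehicle members and 294 CPM in the other vehicle barcodes. Members were at 0.905 (0.86 to 0.951) times the others in WQ-2101 and 0.843 (0.787 to 0.902) times in vehicle, and WQ-2101 members were at 0.985 (0.907 to 1.07) times vehicle members. Between the libraries, the list's median log2 ratio of WQ-2101 over vehicle was 0.27 in members and 0.24 in the others. In members 2 of 11 genes were at least 1.5-fold higher in WQ-2101, against 1.31% of all genes, and none was lower by that fold. Psat1, the next enzyme, had 115 CPM in WQ-2101 members and 122 CPM in the other WQ-2101 barcodes, and 78.2 CPM in vehicle members and 102 CPM in the other vehicle barcodes, and Aldh1l2, a mitochondrial folate enzyme, had 18.1 CPM in WQ-2101 members and 21.4 CPM in the other WQ-2101 barcodes, and 7.45 CPM in vehicle members and 13.7 CPM in the other vehicle barcodes. Cell cycle genes were close to balance. Mitosis genes had medians of -0.03 and 0.03, with Top2a at 551 CPM in WQ-2101 members and 485 CPM in the other WQ-2101 barcodes, and 481 CPM in vehicle members and 463 CPM in the other vehicle barcodes, and DNA replication genes had medians of 0.09 and -0.03, with Mcm6 at 137 CPM in WQ-2101 members and 124 CPM in the other WQ-2101 barcodes, and 159 CPM in vehicle members and 148 CPM in the other vehicle barcodes. ATF4 targets had medians of -0.01 and -0.12. Within that list the cystine transporter Slc7a11 was higher in members, with 47.4 CPM in WQ-2101 members and 19.8 CPM in the other WQ-2101 barcodes, and 30.4 CPM in vehicle members and 17.3 CPM in the other vehicle barcodes, and Asns, or asparagine synthetase, had 119 CPM in WQ-2101 members and 135 CPM in the other WQ-2101 barcodes, and 73.6 CPM in vehicle members and 98.3 CPM in the other vehicle barcodes.

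The members of the 2 libraries were then set against each other. Of 8732 genes with a mean of at least 10 CPM over the 2 member sums, 114 (1.31%) were at least 1.5-fold higher in WQ-2101 members and 100 (1.15%) at least 1.5-fold lower. In the other tumour barcodes the same genes gave 70 (0.802%) higher and 32 (0.366%) lower. The member sums rest on fewer UMIs, so counting error alone widens their spread. None of the 15 GTPases outside the rule and none of the 18 interferon genes shared by both pathways was past 1.5-fold in either direction in members, with median log2 ratios of -0.05 and -0.14. In the other barcodes their medians were 0.36 and 0.25. In these genes WQ-2101 and vehicle thus differed in the number of members and in the level of the other barcodes more than in the level of the members. Since members were required to pass 1 threshold over both libraries, the choice itself brings their levels together.

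Among members, hypoxia genes were higher in WQ-2101, with 6 of 11 past 1.5-fold, against 1.31% of all genes, and a median log2 ratio of 0.66. In the other barcodes 5 of 11 were past 1.5-fold with a median of 0.56. Ankrd37 was 3.08 (2.13 to 4.6) times as high in WQ-2101 members as in vehicle members and 2.62 (2.48 to 2.77) times in the other barcodes. Bnip3, a mitophagy receptor, had 134 CPM in WQ-2101 members and 174 CPM in the other WQ-2101 barcodes, and 60.7 CPM in vehicle members and 98.8 CPM in the other vehicle barcodes, a member ratio of 2.21 (1.9 to 2.57). Pdk1, which restrains pyruvate entry into mitochondria, had 37.4 CPM in WQ-2101 members and 43.2 CPM in the other WQ-2101 barcodes, and 16.9 CPM in vehicle members and 21 CPM in the other vehicle barcodes. Of the ATF4 targets 4 of 9 were past 1.5-fold, against 1.31% of all genes, with a median of 0.57 in members and 0.39 in the others. Trib3, a pseudokinase induced by amino acid stress, had 31.2 CPM in WQ-2101 members and 32.2 CPM in the other WQ-2101 barcodes, and 13.8 CPM in vehicle members and 15 CPM in the other vehicle barcodes, a member ratio of 2.27 (1.65 to 3.18). The chaperone gene Hsph1 had 204 CPM in WQ-2101 members and 233 CPM in the other WQ-2101 barcodes, and 91.7 CPM in vehicle members and 116 CPM in the other vehicle barcodes, a member ratio of 2.22 (1.97 to 2.52). Among genes with a mean of at least 20 CPM over the member sums, the highest ratio was that of Slurp1, a secreted protein of keratinocytes, with 50.6 CPM in WQ-2101 members and 40.8 CPM in the other WQ-2101 barcodes, and 9.74 CPM in vehicle members and 9.36 CPM in the other vehicle barcodes and a member ratio of 5.2 (3.65 to 7.63) against 4.36 (4.06 to 4.68) in the others. Kif21a, Arhgap29, Pfkl and Gm2694 were also among the 10 highest, with member ratios between 2.05 and 2.36. Each of these 4 was also higher in the other WQ-2101 barcodes.

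**Figure D5:**
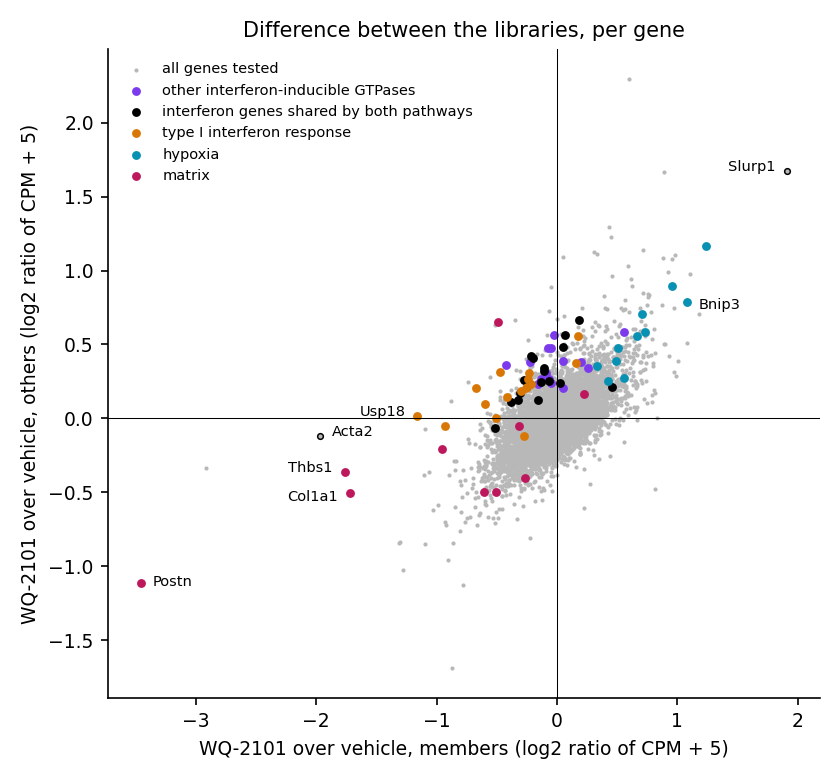
Log2 ratio of WQ-2101 over vehicle, (CPM + 5) over (CPM + 5), in members (x axis) and in the other tumour barcodes (y axis), with 5 gene lists coloured among all tested genes. The 11 hypoxia genes lie above 0 on both axes, while Postn, Col1a1, Thbs1 and Acta2 lie far to the left, low in WQ-2101 members.

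The 100 genes at least 1.5-fold lower in WQ-2101 members included 5 type I interferon genes, 5 matrix genes and 2 immediate early genes. Of 19 tested type I genes 5 were at least 1.5-fold lower, against 1.15% of all genes, with a median log2 ratio of -0.30 in members and 0.19 in the others. Usp18, a negative regulator of interferon signalling, had 12 CPM in WQ-2101 members and 3.23 CPM in the other WQ-2101 barcodes, and 32.9 CPM in vehicle members and 3.14 CPM in the other vehicle barcodes, a member ratio of 0.364 (0.27 to 0.488). Ifit3 had a member ratio of 0.606 (0.518 to 0.708), against 1.31 (1.16 to 1.48) in the others. The share of members that were also type I top was 14.5% in WQ-2101 and 24.9% in vehicle. Without them the Ifit3 log2 ratio was 0.20, from 17 and 5 UMIs, and Ifit3 is among the genes that chose them. Of 10 matrix genes 5 were at least 1.5-fold lower in WQ-2101 members, against 1.15% of all genes. The list's median log2 ratio was -0.56 in members and -0.38 in the others. These values rested on few vehicle barcodes. Postn, or periostin, had 1.04 CPM in WQ-2101 members and 3.18 CPM in the other WQ-2101 barcodes, and 61.3 CPM in vehicle members and 12.7 CPM in the other vehicle barcodes, and 159 of its 214 UMIs in vehicle members came from 1 barcode and 211 from 5. Col1a1 had 59.2 CPM in WQ-2101 members and 50.7 CPM in the other WQ-2101 barcodes, and 206 CPM in vehicle members and 74.3 CPM in the other vehicle barcodes, with 302 of 719 vehicle member UMIs in 1 barcode. Thbs1, or thrombospondin 1, had 7.1 CPM in WQ-2101 members and 7.98 CPM in the other WQ-2101 barcodes, and 36.1 CPM in vehicle members and 11.7 CPM in the other vehicle barcodes, with 81 of 126 UMIs in 1 barcode. Acta2, smooth muscle actin, had 12.3 CPM in WQ-2101 members and 6.41 CPM in the other WQ-2101 barcodes, and 62.7 CPM in vehicle members and 7.4 CPM in the other vehicle barcodes, with 90.9% of the vehicle member UMIs in 5 barcodes, and Igfbp7 had 75.7% there. Without barcodes holding a Postn or Lum UMI, the log2 ratio of WQ-2101 over vehicle members was 0.35 for Acta2 and 0.19 for Igfbp7. Of the lowest named genes, Id3, a transcriptional inhibitor, rested on more barcodes, with 27.4% of its vehicle member UMIs in 5. It had 29.7 CPM in WQ-2101 members and 24.5 CPM in the other WQ-2101 barcodes, and 79.4 CPM in vehicle members and 55 CPM in the other vehicle barcodes, a member ratio of 0.375 (0.311 to 0.451) and 0.446 (0.425 to 0.467) in the others.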

How the data were processed

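Single-cell RNA was captured from whole dissociated tumours, with no sort recorded, with droplet barcoding and a 3′ end kit, per the labels' protocols. The deposited values are raw counts of UMIs per gene and barcode for 32285 genes, with no normalisation by the authors. The matrices name Cell Ranger 7.2.0, per the file headers, while version 2.2.2 and the build GRCm38 stand in the submitters' processing notes. The sources used here give no annotation release, no handling of intron reads and no correction for free RNA, and the lowest deposited barcode total was 500 UMIs.

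From these counts, barcodes were gated, scored and ranked as the report describes. UMIs were summed per library over members and over the other gated barcodes and divided by the summed total (CPM). Log2 ratios used CPM plus 5, and a gene was tested at a mean of 10 CPM over the compared sums. The 5 choosing genes, Hmga2 and Ptprc were left out of counts of genes. With 1 library per group there is no p-value. Poisson intervals of CPM, conditional intervals of ratios and Clopper-Pearson intervals of shares are exact, at 95%, and UMIs that share a cell are not independent. The member sums held 6756901 UMIs in WQ-2101 and 3490515 in vehicle, and the other gated sums 101793336 and 102158941. Scrublet, as in scanpy 1.11.5, was run on each library and called 849 of 18142 WQ-2101 barcodes (4.68%) and 546 of 14374 vehicle barcodes (3.80%), against expected rates of 14.5% and 11.5%. Called doublets were kept, and their removal was 1 of the alternatives. Comparisons at equal depth thinned each barcode to 3000 UMIs, which all gated barcodes reached. A macrophage gate and a T cell gate, used only as comparators, held barcodes of at least 3000 UMIs with a Ptprc UMI, no Hmga2 UMI and at least 3 UMIs and 200 CPM of C1qa, C1qb and C1qc or of Cd3d, Cd3e and Cd3g. Python 3.11.15 was used with scipy 1.17.1, numpy 2.4.6, matplotlib 3.10.9 and pandas 2.3.3, and the counting of genes past a fold was tested on simulated data. Gene symbols are those of the files, positions come from GENCODE vM21, and Ctgf and Cyr61 were read as Ccn2 and Ccn1.

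The members and the gene lists were chosen with earlier results of these data known. The text names the 5 choosing genes, up to 4 genes of each list with the largest mean difference between members and others, the 15 highest and 10 lowest genes on no list, the 10 highest and 10 lowest genes between WQ-2101 and vehicle members, and 10 pathway genes always. Results for 2 of the genes so chosen are not reported here. H2-K1, Ifng, Ifnb1, Nos2, Gbp10, Gbp2b, C1qa and the complement genes were added after their values were seen. Of the listed genes, Gbp11, Gm12250, Mx1, Mx2 and Cxcl11 were not analysed here. A total of 16 alternatives were planned and 2 were added after seeing the data, namely members without the type I top 5% and barcodes without a UMI of Postn or Lum.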

Additional observations from a re-analysis of the deposited data

Results flagged for a closer look

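For 7 genes, WQ-2101 members were lower than vehicle members while the other WQ-2101 barcodes were higher than the other vehicle ones, with both ratios past 1.25-fold and both counting intervals outside 1. This drew attention to them, and the difference between the 2 ratios was not tested, since there was 1 library per group. They were among 18 genes counted with opposite directions in members and others, and their share of all genes searched is not given. The pooled choice left median scores of 1.18 in WQ-2101 members and 1.34 in vehicle members. What part this had in the 7 genes was not tested. Cd274 had a ratio of WQ-2101 over vehicle of 0.782 in members and 1.45 in the others. With the top 5% taken within each library its member log2 ratio was 0.22, so the direction in members depends on how they are chosen. Gm4951 had 0.74 in members and 1.47 in the others, and Gm4841 had 0.795 and 2.27. Olfr56, which overlaps interferon-inducible GTPase genes, had 0.466 and 1.48. The type I genes Ifit3 and Rsad2 had 0.606 and 0.693 in members and 1.31 and 1.5 in the others. Beside these, 14.5% of WQ-2101 members and 24.9% of vehicle members were in the type I top 5%. Without those members the Ifit3 log2 ratio of WQ-2101 over vehicle was 0.20, from 17 and 5 UMIs. Ifit3 is among the genes that chose that top 5%, and the cause was not tested. The matrix gene Tnc had 0.702 in members and 1.64 in the others.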

How the results depend on the processing

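The share ratio of 1.78 ranged between 1.26 and 2.02 over the 13 alternatives that can change it (the top 5% within each library fixes it at 1), and the 98 genes at least 2-fold higher ranged between 69 and 127. The ratio was 1.26 (0.976 to 1.63) with the top 2% as members and 1.44 (0.935 to 2.27) without barcodes holding UMIs of 7 immune genes, both intervals including 1. That immune-free setting was ranked anew, with 61 of 1048 WQ-2101 and 34 of 844 vehicle barcodes as members. It gave 1 gene at least 2-fold lower. Counts of genes past 1.5-fold between the libraries' members depended on the settings. Against 114 higher and 100 lower, the top 2% gave 265 higher and 281 lower, the immune-free setting 965 and 921, a pseudocount of 1 CPM 195 and 186, a minimum mean of 20 CPM 71 and 58, a minimum mean of 2 CPM 174 and 199, and the top 10% gave 66 higher. Smaller member sums and lower minimum levels bring more counting error by construction. Of 1074 list medians under alternatives, 57 moved by more than 0.25. Among results past their fold limit, 0 list medians turned in sign, 23 of 4572 values of named genes in members over others did and 19 of 2286 values of WQ-2101 over vehicle members did. With results within the limit included, 84, 148 and 159 turned, Cd274 in members (0.22 and 1.19, given above) among them.

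The turned values past the limit are log2 ratios. Their cause was not tested, though the concentration of some in few barcodes is given above. For members over others in vehicle, thinning to 3000 UMIs gave Col1a1 -0.0328, Postn -1.32, Acta2 -0.27, Thbs1 -0.10 and Igfbp7 -0.11. The top 2% gave Postn -1.19, and the immune-free setting gave Postn -0.94 and Thbs1 -0.29. A score without Iigp1 gave Postn -0.19, Acta2 -0.0795 and Thbs1 -0.0862, without Igtp Acta2 -0.19 and Thbs1 -0.0371, and without Irgm1 Acta2 -0.14 and Thbs1 -0.0322. For WQ-2101 over vehicle members, thinning gave Acta2 0.59 and Igfbp7 0.39. The top 2% gave Ifit3 0.78, Oasl2 0.071, Acta2 0.71 and Igfbp7 0.41. The immune-free setting gave Aldh1l2 -0.0168, Hspa1b -0.61, Fos 0.31, Postn 0.36, Olfr56 0.54, Acta2 1.39 and Igfbp7 0.49. Without barcodes holding Postn or Lum, Acta2 was 0.35 and Igfbp7 0.19. Acta2 was 0.39 with a score without Iigp1, 0.37 without Igtp and 0.42 without Irgm1. Without members in the type I top 5%, members over others in WQ-2101 gave Ifit3 -0.505, Ifit1 -0.38, Rsad2 -0.39 and Usp18 -0.10. In vehicle this gave Ifit3 -0.50, Ifit1 -0.21, Rsad2 -0.67 and Ccl5 -0.0643, and Ifit3 in WQ-2101 over vehicle members was 0.20, from 17 and 5 UMIs. Ifit1, Ifit3, Rsad2 and Usp18 helped choose that top 5%, which was removed from the members alone. Their ratios of members over others must therefore fall.

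No paired analysis was possible because each group has 1 library and the labels give no replicate numbers. Leaving out a replicate was likewise impossible. Gating needed Hmga2, so tumour cells with little Hmga2 RNA are not covered, and vehicle members, with 3490515 UMIs, limit every comparison of members between libraries.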

Other observations

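All 8 listed complement genes lay below the level filter in the comparison of members with others, and 1 of them, C1s1, passed it between the members of the libraries, with a log2 ratio of WQ-2101 over vehicle of 0.64. C1s1, a protease that starts the classical cascade, had 16.6 CPM in WQ-2101 members and 3.98 CPM in the other WQ-2101 barcodes, and 8.88 CPM in vehicle members and 1.69 CPM in the other vehicle barcodes. Its fold of members over others was 4.17 (3.35 to 5.15) in WQ-2101 and 5.24 (3.46 to 7.72) in vehicle. Its partner C1ra had 11.4 and 3.11 CPM in WQ-2101 members and others and 3.15 and 1.62 CPM in vehicle members and others, from 11 UMIs in vehicle members. C4b had 9.32 and 2.76 CPM in WQ-2101 members and others, and 2.86 and 1.83 CPM in vehicle members and others, with 10 UMIs in vehicle members. In vehicle the intervals of the C1ra and C4b folds include 1.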
